A study of Mus musculus with 9 samples.

Results

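The miRNAs described here carry the names miR-297, miR-466, miR-467 and miR-669, with a letter and an arm where given, and most of them come from a repeat cluster in an intron of the mouse gene Sfmbt2. Members were chosen by name alone, and 54 of the 1140 rows of the miRNA table matched, of which 3 were miR-297, 22 miR-466, 10 miR-467 and 19 miR-669. Of the 54 rows, 22 held 20 or more counts over the 9 samples and 32 held fewer, 16 of them only 1 to 3 counts. At this threshold, mmu-miR-669e-5p lay just inside with 20 counts, and mmu-miR-466e-5p and mmu-miR-669f-5p lay just outside with 15 counts each.

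Liver small RNA of male C57BL/6 mice was sequenced in 3 groups of 3, with 1 mouse to a library. The control group was injected intraperitoneally with normal saline for 8 weeks, and the TAA group was injected with thioacetamide, a liver toxicant that causes fibrosis, over the same time. The recovery group had the same 8 weeks of thioacetamide and then 8 weeks without it, so that recovery and elapsed time cannot be told apart. Whole liver was used, so fewer cells of a type and less RNA per cell cannot be told apart in any value below.

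Sfmbt2 encodes a Polycomb group protein, and in mouse it is an imprinted gene expressed from the paternal copy, known for its role in the placenta. One of its introns holds a large array of repeated miRNA hairpins that is found in rodents and is known for expression in placenta and embryonic stem cells. A hairpin can give a mature strand from its 5p or 3p arm, and bases 2 to 8 of that strand, the seed, pair with target mRNAs.

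By the GENCODE M21 annotation of the GRCm38 build, Sfmbt2 lies on the plus strand of chromosome 2 from 10370510 to 10595253. The hairpin genes of the 4 families inside it number 71, of which 5 are miR-297, 23 miR-466, 14 miR-467 and 29 miR-669. All 71 lie between 10466663 and 10518279 in intron 11 of its principal transcript, an intron that runs from 10461473 to 10523944. The 62 distinct RefSeq hairpins that the member rows matched there are on the plus strand, and 0 of them overlap an exon of Sfmbt2. The array is repetitive, with 10 Mir467a genes at a median spacing of 2462 bases, 12 Mir669a genes and 8 Mir466b genes. The map of the intron shows how the families alternate along it.

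**Figure D1:**
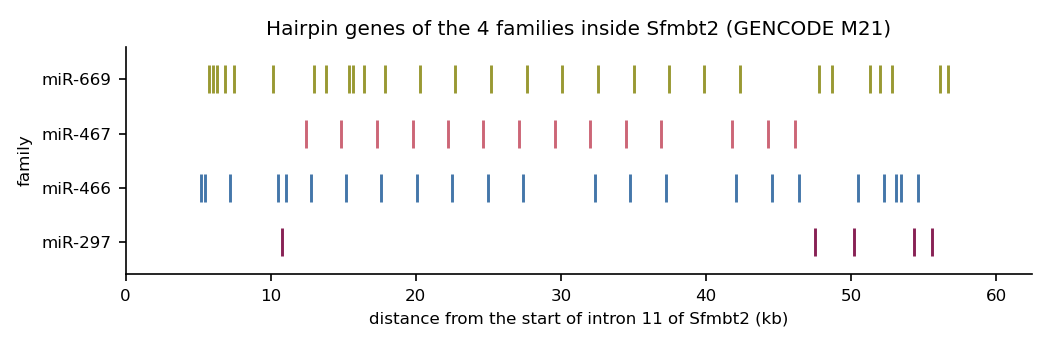
Position of each hairpin gene of the 4 families (ticks, 1 line per family) along intron 11 of Sfmbt2, in kilobases from the start of the intron. Hairpins of the 4 families together span 51617 bases, and those of miR-467 start only between 12.5 and 46.2 kb, away from both ends of the array.

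Not every row with these names belongs to the cluster. Of the 54 rows, 42 matched RefSeq hairpins inside Sfmbt2 only, 4 matched hairpins both inside and elsewhere, 6 matched hairpins elsewhere only, and 2 (mmu-miR-466a-3p and mmu-miR-466a-5p) had no match. The 6 rows from elsewhere were mmu-miR-466i-3p, mmu-miR-466i-5p, mmu-miR-466j, mmu-miR-466k, mmu-miR-466q and mmu-miR-467g. The Mir466i hairpin lies on chromosome 13 from 17747473 to 17747593, on the plus strand, within an intron of Cdk13, which is transcribed from the minus strand.

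Mature sequences from RefSeq (GRCm38.p6) were at hand for 5 of the member rows, all of them from outside the cluster, so they do not show how alike the cluster miRNAs are. They are shown for their repeats of GU or AC. Each is written 5′ to 3′ with the seed in capitals, followed by 2 miRNAs of other loci that carry similar repeats.
mmu-miR-466i-3p: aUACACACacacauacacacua
mmu-miR-466j: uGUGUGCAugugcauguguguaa
mmu-miR-466k: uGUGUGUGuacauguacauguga
mmu-miR-466q: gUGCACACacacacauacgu
mmu-miR-467g: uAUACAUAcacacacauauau
mmu-miR-574-5p: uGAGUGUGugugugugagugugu
mmu-miR-1187: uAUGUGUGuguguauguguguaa
No 2 of the 5 members shared a seed. The run UGUGUG was present in 2 of them and in 1.61% of 1738 mature sequences, and ACACAC was present in 3 of them and in 0.633%.

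Several rows held the same reads. The rows mmu-miR-467a-5p and mmu-miR-467b-5p were identical in every sample, with 2066 counts each, and so were mmu-miR-467a-3p and mmu-miR-467d-3p with 44 counts each. The rows mmu-miR-466a-3p and mmu-miR-466b-3p, with 25 and 26 counts, differed by 1 count. Their values cannot be assigned to either name. How reads matching several miRNAs were counted, and whether strand was used, was not given in the sources used here.

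The libraries held 9071847 to 12983378 counts, and the member rows together took only 266 to 1307 of them. Beyond depth, composition differed between groups, with TMM factors (edgeR's scaling against a few dominant miRNAs) of 0.739 to 0.792 in the control, 1.43 to 1.63 in the TAA and 0.766 to 0.887 in the recovery samples. Scaling by library totals instead moved the median log2 fold change of all miRNAs by 1.12 for TAA against control and by -0.86 for recovery against TAA. The summed CPM of 4 hepatocyte miRNAs was 362034 to 377095 in control, 107503 to 113990 in TAA and 273266 to 401924 in recovery samples. The sum of 5 biliary miRNAs was 582 to 764, 3332 to 5534 and 1240 to 1415, and that of 5 leukocyte miRNAs was 190 to 211, 274 to 319 and 146 to 222. The sum of 5 stellate cell and myofibroblast miRNAs was 25480 to 31109, 18032 to 39505 and 21869 to 35800, with 3 of the 5 called higher in TAA than in control. The endothelial pair summed to 8477 to 8951, 5700 to 6895 and 8347 to 9122, and the red cell pair to 731 to 1266, 183 to 407 and 293 to 586. No marker was at 0 in all samples, and the part of these shifts in the results below was not tested.

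Cluster miRNAs were present at low level in every liver. Counting rows with the same reads once, the rows inside Sfmbt2 held 267, 267 and 210 counts in the control, 759, 625 and 646 in the TAA and 138, 281 and 319 in the recovery samples. In TMM-scaled CPM (counts scaled to library size) the sums were 29.7 ± 4.88, 44.1 ± 2.40 and 23.3 ± 7.56 (SD, n = 3). The TAA samples lay above all control and recovery samples, while control and recovery overlapped. By library totals the sums were 22.6 ± 3.0, 68.8 ± 1.71 and 19.9 ± 7.6 TPM, so the order was the same and the gap wider. Over all 54 rows, shared reads included, the log2 ratio of summed CPM was 0.44 for TAA against control, -0.77 for recovery against TAA and -0.33 for recovery against control. By library totals the first and second of these were 1.47 and -1.63. These sums were described without a test.

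**Figure D2:**
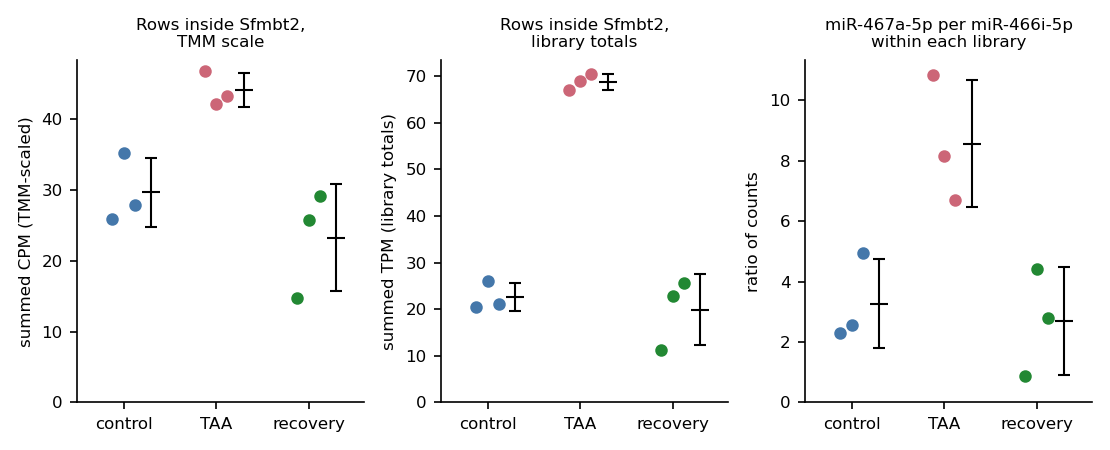
Summed CPM and summed TPM of the rows inside Sfmbt2 (rows with the same reads counted once), and counts of miR-467a-5p per count of miR-466i-5p, in each sample (points) with the group mean and SD (bars). In all panels the 3 TAA samples lie above the control and recovery samples.

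With identical rows counted once, miR-467 gave 59.5% of member counts, miR-669 20.05%, miR-466 19.9% and miR-297 0.564%. With every row counted, the shares were 73.3%, 13.2%, 13.1% and 0.372%. The 5p arm gave 94.5% of member counts with identical rows counted once. Counts from the 3p arm were then 9, 9 and 12 in the control, 34, 50 and 61 in the TAA and 3, 9 and 13 in the recovery samples. This was 3.28%, 6.51% and 2.67% of member counts, respectively. The near-identical rows mmu-miR-466a-3p and mmu-miR-466b-3p were both included, each with 3, 6 and 14 counts in the TAA samples, which raised the TAA share most. Family miR-297 was close to the limit of detection, with 0, 0 and 2 counts in the control, 7, 4 and 4 in the TAA and 0, 0 and 6 in the recovery samples.

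**Figure D3:**
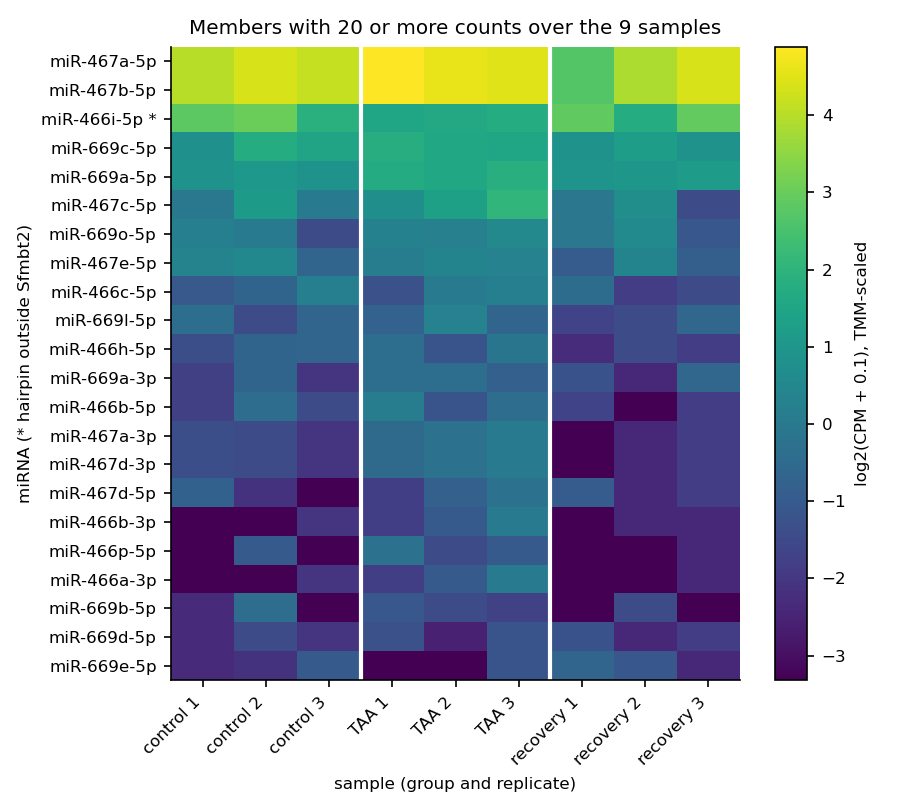
Level of the 22 members with 20 or more counts (rows) in the 9 samples (columns), as log2 of TMM-scaled CPM plus 0.1, with an asterisk on the row whose hairpin lies outside Sfmbt2. The identical rows miR-467a-5p and miR-467b-5p are the highest, and the mean of most rows is highest in the TAA group. The threshold of 20 counts included the TAA samples, so this order is partly built in for rows that reached it through them. Rows holding the same reads are shown separately.

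TAA was compared with control to ask which miRNAs differ in the injured liver. Calls came from edgeR's quasi-likelihood test over all miRNAs and needed both an FDR (false discovery rate) under 0.05 and a change of 2-fold or more. Only 8 of the 54 members passed the filter on low counts, of which 0 were called higher and 1 lower, while of the 420 miRNAs tested 41.7% were called, 25% higher and 16.7% lower. Of the 8, mmu-miR-467c-5p, mmu-miR-467e-5p and mmu-miR-669o-5p passed the filter through the TAA samples alone, so a difference was built into their being tested. The identical rows mmu-miR-467a-5p and mmu-miR-467b-5p count as 2. By library totals 7 of the 8 were called higher, and 0 lower, against 57.4% and 0.952% of all tested, so the scaling decided most calls.

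The member called lower was mmu-miR-466i-5p, whose hairpin is not in the cluster. Its CPM was 7.0, 8.18 and 3.59 in the control, 2.71, 2.97 and 3.29 in the TAA and 7.27, 3.31 and 7.42 in the recovery samples. Every TAA sample was below every control and recovery sample, although control 3 and recovery 2 came close. Its log2 fold change was -1.16 (SE 0.34, FDR 0.0242) for TAA against control and 0.97 (SE 0.34, FDR 0.0563) for recovery against TAA. The first of these was -0.03 (FDR 0.947) by library totals, and its raw counts of 72, 62 and 27 in control and 44, 44 and 49 in TAA samples overlapped. Without control 1, control 2, TAA 1, TAA 2 or TAA 3 the call was lost, with FDR between 0.0501 and 0.0826.

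The most abundant member was mmu-miR-467a-5p, identical to mmu-miR-467b-5p. Its CPM was 16.0, 20.8 and 17.8 in the control, 29.4, 24.2 and 22.0 in the TAA and 6.31, 14.6 and 20.8 in the recovery samples. The TAA samples were above the others, and recovery 1 was far below the other recovery samples. Its log2 fold change was 0.38 (SE 0.18, FDR 0.109) for TAA against control and -0.87 (SE 0.39, FDR 0.114) for recovery against TAA, neither past the threshold. By library totals they were 1.5 (FDR 0.00021) and -1.71 (FDR 0.00968), and both were called.

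A ratio of 2 miRNAs within a library does not depend on its scaling, and the following one was chosen after the values were seen. For each count of mmu-miR-466i-5p there were 2.29, 2.55 and 4.96 counts of mmu-miR-467a-5p in the control, 10.8, 8.16 and 6.69 in the TAA and 0.868, 4.42 and 2.80 in the recovery samples. The TAA samples did not overlap the others. The ratio says that the cluster miRNA and the chromosome 13 miRNA stood in another proportion in these samples, not which of them moved.

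The row mmu-miR-669c-5p held 17, 25 and 20 counts in the control, 55, 43 and 42 in the TAA and 16, 25 and 19 in the recovery samples. Its CPM of 2.54 ± 0.830 in control and 3.04 ± 0.309 in TAA (SD, n = 3) differed by less than the spread, with a log2 fold change of 0.19 (SE 0.31, FDR 0.63) by TMM. By library totals it was called higher in TAA at 1.31 (FDR 0.00522). Recovery against TAA gave -0.68 (SE 0.27, FDR 0.077) by TMM and -1.54 (FDR 0.00255, called) by library totals.

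The row mmu-miR-669a-5p held 18, 15 and 13 counts in the control, 52, 42 and 52 in the TAA and 17, 21 and 24 in the recovery samples. Its CPM was 1.82 ± 0.138, 3.18 ± 0.329 and 1.98 ± 0.196 (SD, n = 3), and the TAA samples did not overlap the others. Its log2 fold change of 0.71 (SE 0.26, FDR 0.0467) for TAA against control passed the FDR threshold but not the minimum fold. The FDR was 0.178 by DESeq2 and 0.131 with the replicate block, and by library totals the row was called at 1.83 (FDR 0.000535). This row was singled out after its values were seen.

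The comparison of recovery with TAA asked what changed after the toxicant was withdrawn, and it shares the TAA samples with the comparison above. Of 10 members tested 0 were called higher and 2 lower, against 24.8% of all 440 tested, 10.2% called higher and 14.5% lower. The 2 were mmu-miR-467a-3p and mmu-miR-467d-3p, which hold the same reads. They had 3, 2 and 1 counts in the control, 10, 11 and 14 in the TAA and 0, 1 and 2 in the recovery samples. They passed the filter through the TAA samples alone, so a difference was built into their being tested. The log2 fold change was -2.90 (SE 0.67, FDR 0.011), and without recovery 2 the call was lost (FDR 0.0534) at a similar value of -2.85. Without recovery 3 the value was -3.71. From the 35 TAA and 3 recovery counts the ratio was 7.92, with an exact 95% interval of 2.5 to 40.2 that covers counting error only.

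The rows mmu-miR-467c-5p, mmu-miR-467e-5p and mmu-miR-669o-5p also passed the filter through the TAA samples alone. In addition, 2 pairs among the 10 members hold the same reads, so these counts do not speak for the 54 members. By library totals 9 of the 10 were called lower and 0 higher, against 46.1% and 0.909% of all tested. The row mmu-miR-467c-5p held 26, 36 and 61 counts in TAA and 8, 17 and 3 in recovery samples, with a log2 fold change of -1.61 (SE 0.60, FDR 0.0665) by TMM and -2.48 (FDR 0.0091) by library totals. As with the 3p rows, a difference was built into its being tested. It was named after its values were seen.

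**Figure D4:**
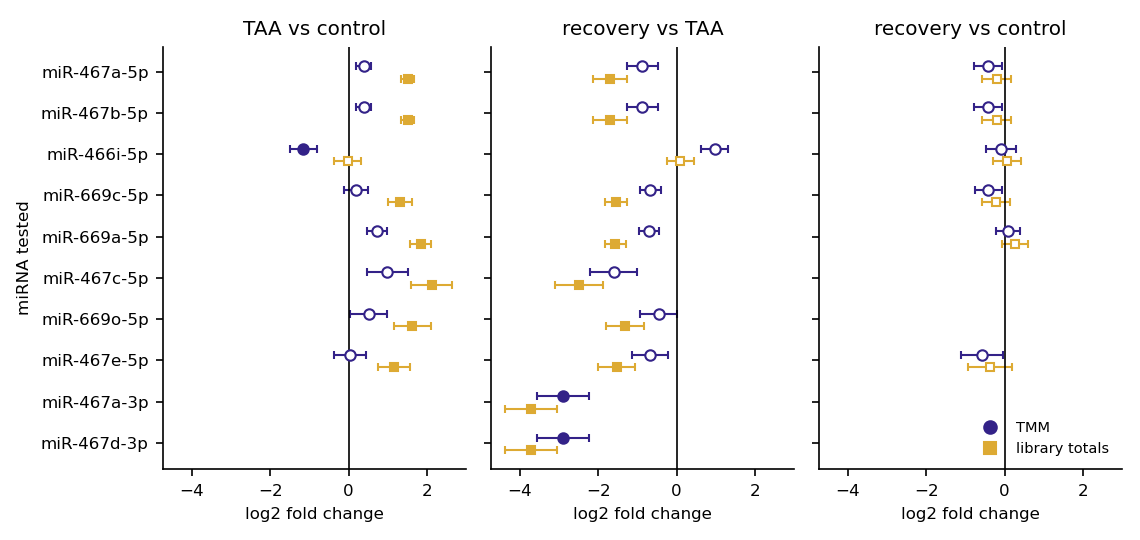
Log2 fold change with its SE for each member tested in each comparison, by TMM (circles) and by library totals (squares), filled where called. By TMM miR-466i-5p is called for TAA against control and the identical miR-467a-3p and miR-467d-3p for recovery against TAA, and by library totals most members are called in both.

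The comparison of recovery with control asked whether the recovered livers still differed. Of 6 members tested 0 were called, against 11.3% of all 391 tested, and edgeR gave 0 members with an unadjusted p under 0.05 and DESeq2 called 0. The log2 fold changes ran from -0.57 to 0.09, with -0.42 (FDR 0.598) for mmu-miR-467a-5p, whose recovery samples varied widely.

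The row mmu-miR-669o-5p held 11, 7 and 2 counts in the control, 18, 16 and 20 in the TAA and 8, 15 and 4 in the recovery samples. The row mmu-miR-467e-5p held 12, 10 and 4 counts in the control, 16, 18 and 17 in the TAA and 4, 13 and 5 in the recovery samples. By TMM neither passed the threshold in a comparison that tested it, with log2 fold changes of 0.51 (SE 0.48, FDR 0.39) and 0.04 (SE 0.41, FDR 0.928) for TAA against control. By library totals both were called, at 1.62 (FDR 0.0152) and 1.16 (FDR 0.0306), and also for recovery against TAA (FDR 0.0392 and 0.0239). In the comparisons with TAA both passed the filter through the TAA samples alone, so a difference was built into their being tested. The other 12 members with 20 or more counts were not tested in any comparison and held 20 to 62 counts each, from mmu-miR-669e-5p to mmu-miR-466c-5p. The following examples of them were picked after their values were seen. The row mmu-miR-466a-3p had 0, 0 and 1 counts in the control, 3, 6 and 14 in the TAA and 0, 0 and 1 in the recovery samples. It reached 20 counts only through the TAA samples, mostly TAA 3, so no ratio is given. The row mmu-miR-466p-5p had 0, 3 and 0, then 12, 4 and 6, then 0, 0 and 1 counts, and it also reached 20 counts only through the TAA samples. Not all of the 12 were highest in TAA. The row mmu-miR-669e-5p had 1, 1 and 3, then 0, 0 and 5, then 5, 4 and 1 counts. Its mean CPM was 0.209 in control, 0.112 in TAA and 0.331 in recovery. More member rows were detected in TAA samples (36 to 38) than in control (22 to 27) or recovery samples (17 to 31), and so were more of all rows, with 806 to 828, 631 to 663 and 675 to 722, respectively.

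Among the miRNAs of other loci with similar repeats, mmu-miR-574-5p had a CPM of 22.0, 22.3 and 18.9 in the control, 23.6, 24.4 and 23.4 in the TAA and 22.9, 18.2 and 19.5 in the recovery samples. Here too the TAA samples lay above all control and recovery samples, by a small margin. The log2 fold change of mmu-miR-574-5p was 0.09 (FDR 0.658) for TAA against control by TMM and 1.21 (FDR 0.000498) by library totals. For recovery against TAA it was -0.26 (FDR 0.285) by TMM and -1.14 (FDR 0.0015) by library totals. The row mmu-miR-1187 had 0 or 1 count in every sample.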

How the data were processed

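Small RNA libraries of 9 livers (3 groups of 3) were analysed, grouped by their labels. The authors prepared the libraries with a NEBNext small RNA kit, mapped the reads with Bowtie 1.3.0 (version per the submitters' processing notes) to mm10 and miRBase, and deposited raw read counts and TPM per mature miRNA. The deposited TPM was the count scaled to the sum of its column, with no length term, with a largest difference of 4.96e-05. Counts were tested here with edgeR 4.0.16 (R 4.3.3) by the quasi-likelihood test in each pair of groups, with filterByExpr (minimum count 10), TMM and Benjamini-Hochberg adjustment over all miRNAs tested, and checked on simulated data. The simulation drew both groups from their pooled composition and used TMM only, so it did not check the choice of scaling. A miRNA was called with an FDR under 0.05 and a change of 2-fold or more. CPM used TMM factors over the 9 samples. Named singly were members called in any comparison, the 4 with the highest totals and the 2 most abundant tested but not called, with other members added where stated or where their counts were low. Alternatives used library totals, DESeq2 1.42.0, limma 3.58.1 on log2(TPM + 1), other filters, merged rows, a replicate block and leaving out each sample. Members and lists were chosen with earlier results of these data known. Hairpins were matched by name to RefSeq and GENCODE on GRCm38. The mRNA libraries were not analysed here.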

Additional observations from a re-analysis of the deposited data

How the results depend on the processing

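The number of members called for TAA against control (1) was 7 by library totals, 4 by limma on log2(TPM + 1), 3 without a filter on low counts, 0 with a mean of at least 10 CPM and 2 without a minimum fold. It ranged from 0 to 3 when 1 sample was left out, and without TAA 1 the 3 called were mmu-miR-467a-3p, mmu-miR-467d-3p and mmu-miR-467c-5p, all higher in TAA. The rows mmu-miR-467a-3p and mmu-miR-467d-3p hold the same reads. All 3 passed the filter through the TAA samples alone, so a difference was built into their being tested. For recovery against TAA (2) the number called was 9 by library totals, 4 by DESeq2, 7 by limma and 7 without a filter. It was 0 with a mean of at least 10 CPM and 1 with near-identical rows merged. It ranged from 2 to 4 when 1 sample was left out, with 4 without TAA 2. Without recovery 2 both calls were other rows, mmu-miR-466i-5p (1.29, FDR 0.0161) higher and mmu-miR-467c-5p (-2.29, FDR 0.0482) lower in recovery. In both comparisons the 10 CPM filter left only the identical mmu-miR-467a-5p and mmu-miR-467b-5p. The rows called in the main fit could not be called there. Without a filter 53 members were tested. For recovery against control the number called was 0 in all of the alternatives run. The log2 ratio of summed CPM was 1.47 in place of 0.44 and -1.63 in place of -0.77 by library totals. Leaving out 1 sample moved the 3 ratios over 0.37 to 0.58, -1.04 to -0.54 and -0.60 to -0.10. The log2 fold change of mmu-miR-466i-5p changed sign for TAA against control by limma (0.0280) and for recovery against control by library totals (0.0626), by limma (0.0597), without control 2 (0.09) and without recovery 2 (0.21, in a range of -0.39 to 0.21 over left-out samples), and that of mmu-miR-669c-5p for TAA against control without control 1 (-0.0540, in a range up to 0.42 over left-out samples). For recovery against TAA, mmu-miR-466i-5p was called by DESeq2 (1.03, FDR 0.0161). The cause of these shifts was not tested. Samples with the same replicate number were different mice, and their deviations correlated at -0.241 to 0.242. With 3 samples in a group, these values cannot show whether handling was shared by number. With the replicate block the calls numbered 1, 2 and 0. Depth limits the members under 20 counts, of which 16 held 1 to 3 counts in all.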
